A study of Mus musculus with 21 samples.

Results

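Progressive myoclonus epilepsies are inherited disorders in which action-provoked muscle jerks, seizures and a decline of cerebellar function appear together. Their genes act in separate compartments of the neuron. Loss of the cysteine protease inhibitor cystatin B (Cstb) causes the Unverricht-Lundborg form, while the other genes act in lysosomes, glycogen turnover, the Golgi complex, sphingolipid synthesis, the plasma membrane, cell polarity, ubiquitination and the nuclear lamina. The expression of 9 of these other genes (Scarb2, Epm2a, Nhlrc1, Gosr2, Cers1, Kcnc1, Prickle1, Kctd7 and Lmnb2) was examined in mice that lack cystatin B. The genes were chosen by symbol, and a probe set was used where it was annotated to 1 of those symbols alone. This gave 18 probe sets of 8 genes among the 45037 probe sets tested, or 8 of 18193 genes with a probe set of their own. Cers1, which makes ceramide in neurons, was represented only by a probe set that also carries the symbol Gdf1, and no value is given for it.

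RNA was hybridised to Affymetrix Mouse Genome 430 2.0 arrays, which measure messenger RNA with short probes grouped into probe sets. Probe sets whose ID ends in _s_at or _x_at can also bind related transcripts. The Cstb-/- group at postnatal day 7 (P7), an age before symptoms, had 4 arrays and wild type had 4. At P30, an age with symptoms, there were 3 Cstb-/- arrays and 3 wild type arrays of cerebellum. Cerebellar granule cells cultured from P5 pups for 2 days in vitro had 3 Cstb-/- arrays and 4 wild type arrays. All mice had a 129SvJ background. The Cstb-/- animals carry a constitutive knockout allele in every cell, and wild type littermates were the controls. The cultures of both genotypes received cytosine arabinoside against dividing glia, and meninges were removed before dissociation. P7 animals were 3 males and 1 female in the Cstb-/- group, against 1 male and 3 females in wild type. Values are log2 signals, centred so that every probe set has a median of 0 within an experiment, so a value says how an array stands against the others of its experiment and not how abundant a transcript is. The labels do not say whether each granule cell array came from a separate culture, and the p-values measure the spread between these arrays.

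Cstb itself fell in all 3 experiments (largest limma adjusted p 4.33e-05). Its probe set 1422507_at ranged from -1.29 to -1.05 in P7 Cstb-/- cerebella, against 1.05 to 1.28 in wild type, and the log2 differences (Cstb-/- minus wild type) were -2.31 at P7, -2.77 at P30 and -1.86 in granule cells. Its other probe set, 1422506_a_at, gave -3.10, -2.70 and -2.08. Several cell type markers differed between the genotypes. In granule cells the mean of 22 meningeal fibroblast probe sets was 1.07 to 1.10 on Cstb-/- arrays and -0.19 to -0.04 on wild type arrays, and 12 of the 22 were called higher. The mean of 16 probe sets of granule cell precursors and dividing cells was 0.83 to 0.90 on Cstb-/- arrays and -0.23 to -0.05 on wild type arrays in the cultures, with 9 called higher. These were of 8 genes (Ccnb2, Bub1, Birc5, Top2a, Cdk1, Mki67, Aurka and Mcm2). The precursor genes Atoh1 and Gli1, also listed, were not among them, and 3 of the 16 had a negative difference. At P30 the mean of 19 microglial probe sets was 0.40 to 0.64 on Cstb-/- arrays and -0.66 to -0.41 on wild type arrays, with 10 called higher. At P7 the mean of 17 choroid plexus probe sets was -2.25 to -0.10 on Cstb-/- arrays and 0.04 to 0.39 on wild type arrays. That of 28 oligodendrocyte probe sets was 0.11 to 0.57 on Cstb-/- arrays and -0.51 to -0.08 on wild type arrays. None of either list was called at P7 by limma, while 14 of 17 and 23 of 28 had an unadjusted p under 0.05. Also at P7, without a limma call, the mean of 21 mature granule cell probe sets was 0.08 to 0.26 on Cstb-/- arrays and -0.26 to -0.11 on wild type arrays (9 higher at an unadjusted p under 0.05). The fibroblast mean was -0.20 to -0.01 on P7 Cstb-/- arrays and 0.07 to 0.12 on wild type arrays (10 of 22 lower), and the precursor mean was -0.15 to -0.01 and 0.02 to 0.10 for Cstb-/- and wild type (5 of 16 lower). Of the other marker lists, astrocyte probe sets were called higher in 3 of 31 at P30, all of the 1 gene Gfap. In granule cells 6 of 31 astrocyte probe sets were called higher, of the 2 genes Gja1 and Aldh1l1. From the endothelial and mural list 3 of 20 were called higher in granule cells, those of Tagln, Acta2 and Pdgfrb. That list had 10 of 20 lower there, with a median of 0.03. The mature granule cell and Purkinje cell lists had 1 called lower each in the cultures. The astrocyte mean in the cultures was 0.25 to 0.42 on Cstb-/- arrays and -0.27 to 0.05 on wild type arrays. Among oligodendrocyte probe sets in the cultures, that of Olig2, a transcription factor of this lineage, was called higher (log2 difference 1.00, limma adjusted p = 0.00810), and 11 of 28 were lower at an unadjusted p under 0.05. Sex labels went against the Y-linked gene Eif2s3y on 2 granule cell arrays, at -2.33 on Cstb-/- array 1, labelled male, and 1.78 on Cstb-/- array 2, labelled female, where Xist, expressed from the inactive X chromosome, stood at 0.00 and -6.89. A further 2, wild type array 7 (labelled male) with Eif2s3y at 0.92 and Xist at -0.23, and wild type array 8 (labelled female) with 0.00 and 0.32, were high for Xist without being low for Eif2s3y. At P30, Cstb-/- array 1 is labelled female but stood at -0.02 for Eif2s3y, within the range of the arrays labelled male. The P7 Cstb-/- array 5 stood apart in its 18S ribosomal control probe sets, at 3.39, against -0.40 to 0.64 on the other P7 arrays. Among granule cell arrays, Cstb-/- array 1 was lowest in these controls, at -1.07, against -0.33 to 0.49 on the others. That array also gave the lowest granule cell values of Kcnc1 1423559_at and Prickle1 1444759_at and the highest of Nhlrc1. The part of array quality in these values was not tested. Because levels were not kept, these files cannot show whether a marker, or the granule cell identity of the cultures, is absent from an array. In the whole tissue and in the cultures, fewer cells of a type and less RNA per cell cannot be told apart.

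No probe set of the 8 genes was called in any experiment. A call required a fold of at least 1.3 and a Benjamini-Hochberg adjusted p (limma, over all 45037 probe sets) below 0.05 in cerebella or 0.01 in granule cells. Over all probe sets 0.00666% were called at P7, 0.144% at P30 (0.138% higher) and 2.54% in granule cells (2.07% higher), and the count of 0 among 18 lies near that background. At an unadjusted p under 0.05, 2 of 18 passed at P7, 2 at P30 and 7 in granule cells, and over all probe sets 9.45%, 7.72% and 31.6% did. The unpaired equal-variance test of the study's methods, whether adjusted over the whole array or only within the fold filter, also called 0 of 18 in each experiment. In cerebella none of the 18 differences reached the 1.3-fold size, so a rule with that fold could call none, whatever the p. The arrays of the genotypes did not overlap for 2 of 18 probe sets at P7, 3 at P30 and 5 in granule cells, beside 5.65%, 12.5% and 22.8% of all probe sets.

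The size of difference that the arrays leave possible depended on the experiment. The 95% interval of the difference lay wholly inside a 1.3-fold change in either direction (0.379 on the log2 scale) for 17 of 18 probe sets at P7, for 14 at P30 and for 8 in granule cells. The median absolute log2 difference of the 18 probe sets was 0.067 at P7, 0.105 at P30 and 0.142 in granule cells, beside 0.079, 0.072 and 0.169 over all probe sets. Signed medians were 0.03, -0.01 and -0.00 for the 18 probe sets and 0.01, -0.01 and -0.02 for all. At P7 the differences ran from -0.13 (Scarb2) to 0.31 (Epm2a), and at P30 from -0.15 (Kcnc1) to 0.29 (Epm2a). In granule cells they ran from -0.68 (Kcnc1) to 0.44 (Lmnb2), and 5 of the 18 were past the 1.3-fold size, beside 18.4% of all probe sets. Probe sets of the same gene did not always move alike. Of the 7 genes with several probe sets, 3 had the same sign in all of them at P7, 4 at P30 and 3 in granule cells.

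**Figure D1:**
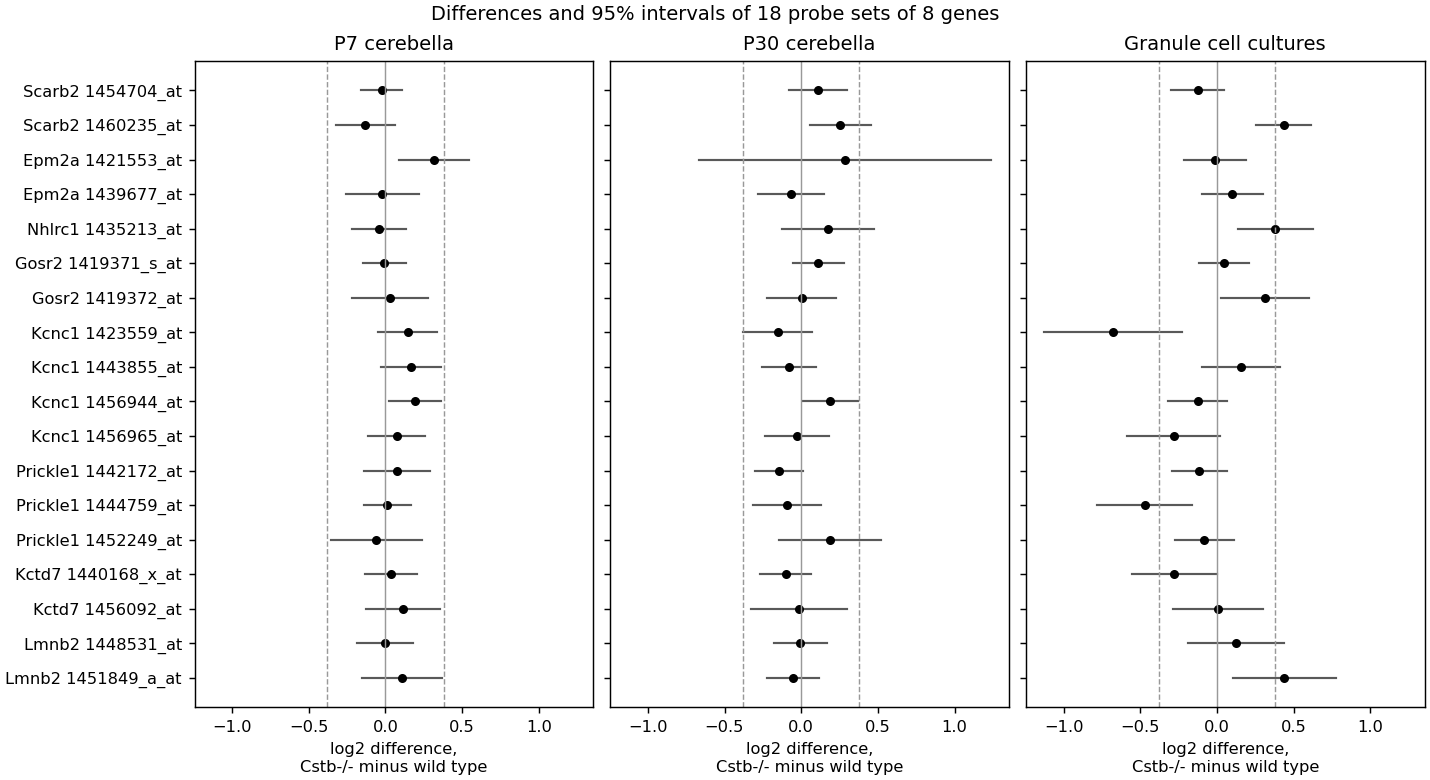
Log2 difference (Cstb-/- minus wild type, horizontal axis) of each of the 18 probe sets in P7 cerebella, P30 cerebella and granule cell cultures. Points are estimates and lines their 95% intervals from limma, the dashed lines mark a 1.3-fold change; the intervals of 17, 14 and 8 probe sets lie between the dashed lines.

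Scarb2 encodes LIMP-2, a lysosomal membrane protein that carries beta-glucocerebrosidase to the lysosome and is mutated in action myoclonus with renal failure. Its probe set 1460235_at had the smallest adjusted p of the 18 probe sets in granule cells. It read 0.25, 0.42 and 0.36 on Cstb-/- granule cell arrays, against 0.00, -0.18, -0.07 and -0.10 on wild type arrays. All 3 Cstb-/- arrays lay above all 4 wild type arrays. The log2 difference was 0.44 (SE 0.08, 95% interval 0.26 to 0.61), with an adjusted p of 0.0135 by limma, which missed the threshold of 0.01. With a threshold of 0.05 it would be called, as would 9.05% of all probe sets. It was also called with array weights, as were 6.28% of all, and in 1 fit over all groups, as were 12.7%, and the adjusted p ran from 0.0181 to 0.0568 when each array was left out in turn.

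In P30 cerebella the same Scarb2 probe set read 0.03, 0.07 and 0.25 in Cstb-/- mice and -0.25, -0.13 and -0.03 in wild type mice. These groups did not overlap either. This gave a log2 difference of 0.26 (SE 0.09, 95% interval 0.05 to 0.46; limma adjusted p = 0.554). The microglial markers given above were also higher in these Cstb-/- cerebella, and their part in the Scarb2 value was not tested. At P7 this Scarb2 probe set read 0.08, -0.04, -0.09 and -0.34 in Cstb-/- cerebella, against -0.01, 0.07, 0.01 and 0.06 in wild type. The lowest P7 value belonged to Cstb-/- array 5, which also stood apart in the 18S controls. The P7 log2 difference of -0.13 (limma adjusted p = 0.652) became -0.05 without that array.

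The second Scarb2 probe set, 1454704_at, did not follow the first in granule cells. It read -0.15, -0.04 and -0.05 on Cstb-/- arrays, against 0.01, 0.00, 0.01 and 0.17 on wild type arrays, so the Cstb-/- arrays lay lower without overlap. Between genotypes the log2 difference was -0.13 (95% interval -0.30 to 0.05; limma adjusted p = 0.281). It was 0.11 at P30 and -0.02 at P7. The mean of both probe sets gave a Scarb2 log2 difference of 0.16 in granule cells (limma adjusted p = 0.140 over 18193 genes), so the granule cell reading of Scarb2 rests on 1 of its 2 probe sets. The part of the fibroblast and dividing cell markers in it was not tested beyond a fit with the fibroblast mean as a covariate, which left a log2 difference of 0.32 (limma adjusted p = 1). That mean had r = 0.997 with genotype over the 7 arrays, and no probe set at all was called in that fit.

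**Figure D2:**
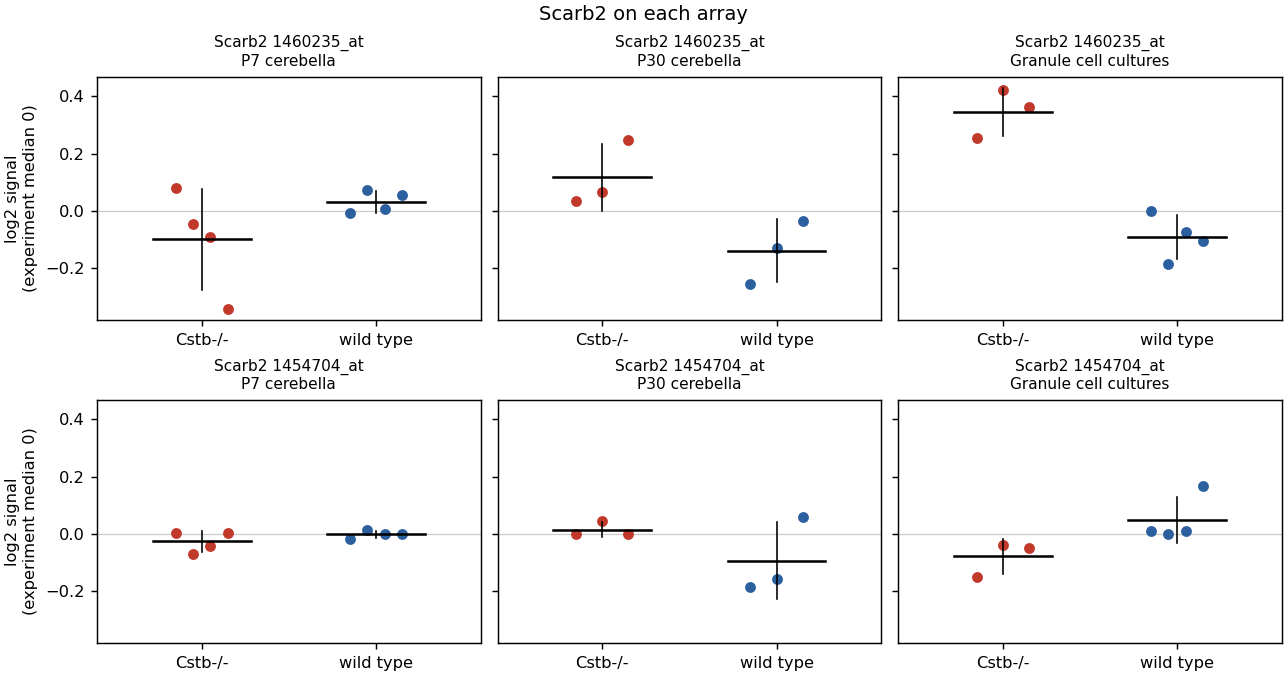
Log2 signal of both Scarb2 probe sets (rows) on each array of the 3 experiments (columns), Cstb-/- in red and wild type in blue; black bars are the mean and SD. In granule cell cultures 1460235_at lies higher on all 3 Cstb-/- arrays and 1454704_at lower on all 3.

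Over all 21 arrays, the probe sets of other genes most like Scarb2 1460235_at among 34943 were those of Spcs2, a subunit of the signal peptidase (r = 0.954), Bet1, a SNARE of transport between endoplasmic reticulum and Golgi (r = 0.924), and Tspan6, a tetraspanin (r = 0.922). The arrays share genotype and experiment, and the correlations are a description. In granule cells the log2 differences were 0.42 for Spcs2 (adjusted p = 0.0247 by limma), 0.54 for Bet1 (0.0422) and 0.71 for Tspan6 (0.00247), and only that of Tspan6 was called.

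Epm2a and Nhlrc1 are the Lafora disease genes. Epm2a encodes laforin, a phosphatase that acts on glycogen, and Nhlrc1 encodes malin, a ubiquitin ligase that works with laforin. The Epm2a probe set 1421553_at had the largest difference of the 18 at P7. It read 0.47, 0.01, 0.12 and 0.17 in Cstb-/- cerebella, against -0.01, -0.06, -0.31 and -0.11 in wild type. The groups did not overlap, but the gap between the lowest Cstb-/- and the highest wild type array was small. The estimated log2 difference was 0.31 (SE 0.10, 95% interval 0.08 to 0.54; limma adjusted p = 0.427), the only P7 interval among the 18 that reached past a 1.3-fold change. With the choroid plexus mean of each array as a covariate it was 0.62 (limma adjusted p = 0.785). That mean had r = -0.823 with genotype over the P7 arrays, so this fit separates the 2 poorly.

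At P30 the Epm2a probe set 1421553_at was dominated by the spread within genotypes, with 0.28, 1.06 and -0.38 in Cstb-/- cerebella and 0.95, -0.55 and -0.28 in wild type. The high and the low arrays were found in both genotypes. The log2 difference of 0.29 had a 95% interval of -0.67 to 1.24, the widest of the 18. In granule cells the difference was -0.01, with a 95% interval of -0.22 to 0.19. The other Epm2a probe set, 1439677_at, gave -0.02 at P7, -0.07 at P30 and 0.10 in granule cells.

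Nhlrc1, with 1 probe set, read 0.44, 0.04 and 0.32 on Cstb-/- granule cell arrays, against 0.00, -0.24, -0.13 and -0.10 on wild type arrays. All Cstb-/- arrays were higher, and array 2 lay close to the wild type range. The log2 difference was 0.38 (SE 0.11, 95% interval 0.13 to 0.63; limma adjusted p = 0.0604). In cerebella it was 0.17 at P30 and -0.04 at P7. The P30 value was 0.043 without wild type array 1 and 0.34 without wild type array 3.

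Gosr2 encodes a SNARE that acts in transport from the endoplasmic reticulum to the Golgi. Its probe set 1419372_at read 0.00, 0.34 and 0.14 on Cstb-/- granule cell arrays and -0.02, -0.42, 0.00 and -0.18 on wild type arrays. The groups met at 0, where 1 array of each genotype stood. This gave a log2 difference of 0.31 (SE 0.13; limma adjusted p = 0.133). Probe set 1419371_s_at gave 0.05 in granule cells, 0.11 at P30 and -0.01 at P7, and 1419372_at gave 0.00 at P30 and 0.03 at P7.

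Kcnc1 encodes Kv3.1, a potassium channel that ends action potentials quickly and lets neurons fire at high rates, and granule cells of the cerebellum are known to express it. It is measured by 4 probe sets. Probe set 1423559_at read -1.10, -0.26 and -0.31 on Cstb-/- granule cell arrays, against 0.00, 0.32, 0.06 and 0.11 on wild type arrays. All Cstb-/- arrays lay below all wild type arrays. Cstb-/- array 1, which was also lowest in the 18S controls, lay far below the other Cstb-/- arrays. The log2 difference of -0.68 was the largest in size among the 18 in any experiment (SE 0.20, 95% interval -1.13 to -0.23; limma adjusted p = 0.0641). Without Cstb-/- array 1 it was -0.41.

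The other Kcnc1 probe sets did not share that size. In granule cells the log2 difference was -0.28 for 1456965_at, -0.12 for 1456944_at and 0.16 for 1443855_at. Averaged over the 4 probe sets it was -0.23 (limma adjusted p = 0.0573 over 18193 genes). In the cerebella 1423559_at gave -0.15 at P30 and 0.14 at P7.

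In the cerebella, Kcnc1 probe set 1456944_at was the one with separate groups at both ages. At P7 it read 0.04, 0.00, 0.26 and 0.11 in Cstb-/- mice, against -0.08, -0.00, -0.17 and -0.11 in wild type. At P30 it read 0.21, 0.21 and 0.02 in Cstb-/- mice and -0.02, -0.02 and -0.08 in wild type. Every Cstb-/- array stood above every wild type array of its age, although the nearest pair at P7 was almost equal. Between genotypes the log2 difference was 0.19 at both ages (limma adjusted p = 0.490 at P7 and 0.630 at P30). At P7, all 4 Kcnc1 probe sets had a positive difference, between 0.07 and 0.19, and at P30 only 1456944_at did. Labelled sex was unbalanced at P7. With it as a covariate the P7 values were 0.064 for 1423559_at, 0.055 for 1443855_at, 0.22 for 1456944_at and 0.16 for 1456965_at. Mature granule cell markers stood higher at P7 as well, as given above, and at P30 their means overlapped, at -0.09 to 0.02 on Cstb-/- arrays and -0.13 to 0.10 on wild type arrays. Their part in the Kcnc1 values was not tested. The granule cell differences of 1423559_at and 1456944_at, less those at P7, are given with the comparison between experiments.

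**Figure D3:**
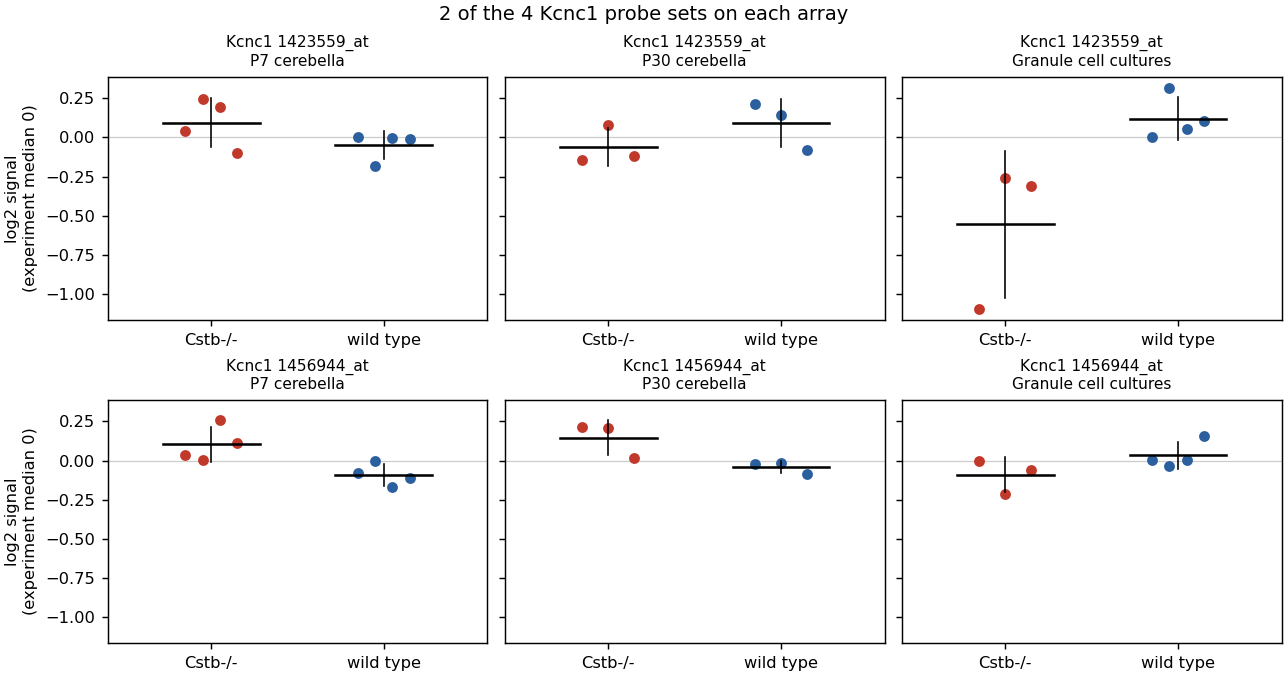
Log2 signal of Kcnc1 probe sets 1423559_at (upper row) and 1456944_at (lower row) on each array of the 3 experiments, Cstb-/- in red and wild type in blue; black bars are the mean and SD. The lowest granule cell value of 1423559_at, -1.10, is that of Cstb-/- array 1.

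Prickle1 is a cytoplasmic protein of the planar cell polarity pathway and has 3 probe sets. Probe set 1444759_at read -0.45, -0.05 and -0.21 on Cstb-/- granule cell arrays, against 0.00, 0.18, 0.26 and 0.50 on wild type arrays. Wild type was higher on every array. The estimated log2 difference was -0.47 (SE 0.14, 95% interval -0.78 to -0.16; limma adjusted p = 0.0631). The 2 other probe sets were also negative in granule cells, at -0.12 for 1442172_at and -0.08 for 1452249_at. At P30, 1442172_at read -0.10, -0.04 and -0.06 in Cstb-/- cerebella and 0.14, 0.05 and 0.04 in wild type, again without overlap, with a log2 difference of -0.14 (limma adjusted p = 0.671), while 1452249_at gave 0.19 (0.046 without Cstb-/- array 3 and 0.32 without wild type array 3). At P7 the 3 probe sets lay between -0.06 and 0.08.

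Kctd7 encodes a BTB domain protein that binds the ubiquitin ligase scaffold cullin 3. Its probe set 1440168_x_at read -0.11, 0.00 and -0.29 on Cstb-/- granule cell arrays, against -0.13, 0.32, 0.18 and 0.22 on wild type arrays. A wild type array lay among the Cstb-/- arrays. The log2 difference was -0.28 (SE 0.12; limma adjusted p = 0.157), and that of 1456092_at was 0.01. In the cerebella the Kctd7 differences lay between -0.10 and 0.11.

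Lmnb2 encodes lamin B2, a filament protein under the inner nuclear membrane. Its probe set 1451849_a_at read 0.19, 0.00 and 0.50 on Cstb-/- granule cell arrays, against 0.00, -0.07, -0.38 and -0.39 on wild type arrays. The genotypes met at 0 in 1 array each. This gave a log2 difference of 0.44 (SE 0.15, 95% interval 0.10 to 0.78; limma adjusted p = 0.0904), and the other probe set, 1448531_at, gave 0.12. In the cerebella the Lmnb2 differences lay between -0.05 and 0.11. Dividing cell markers were higher in these Cstb-/- cultures, with the means given above, and their part in the Lmnb2 values was not tested.

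**Figure D4:**
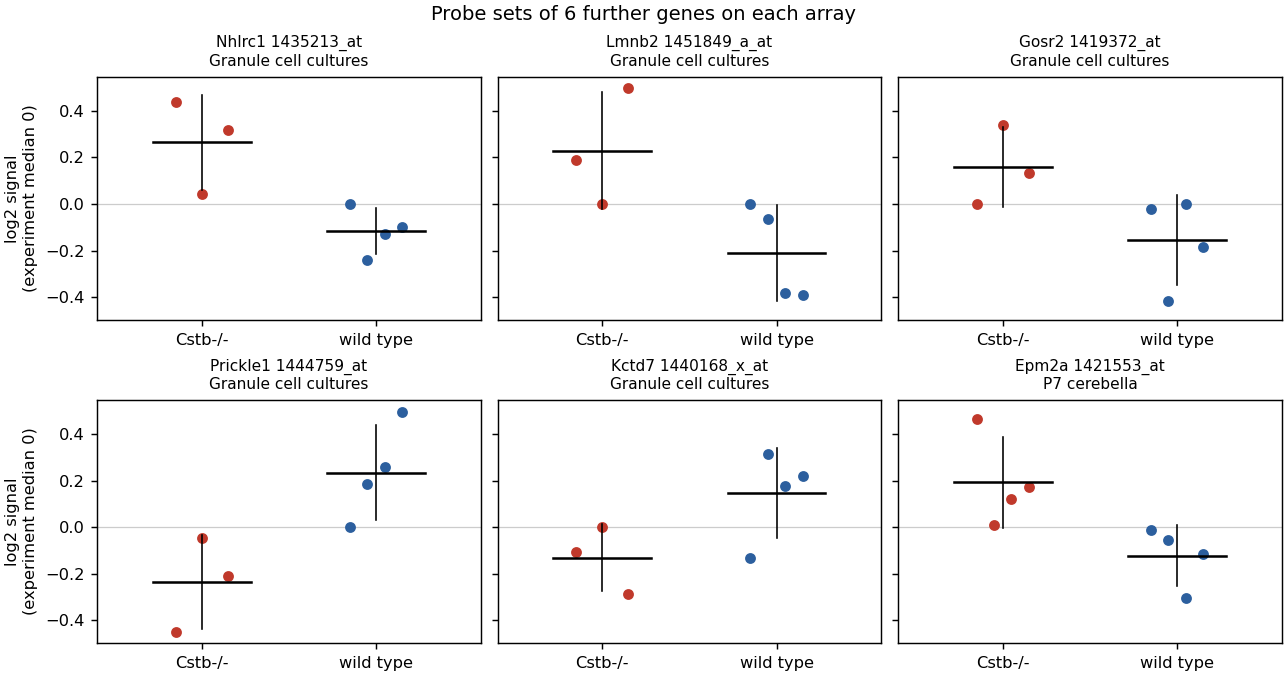
Log2 signal on each array for 1 probe set each of Nhlrc1, Lmnb2, Gosr2, Prickle1 and Kctd7 in granule cell cultures and of Epm2a in P7 cerebella, Cstb-/- in red and wild type in blue; black bars are the mean and SD. Nhlrc1, Prickle1 and Epm2a show no overlap between genotypes, and the adjusted p of each is above its threshold.

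Whether the genotype difference itself differed between experiments was tested in 1 limma fit over the 21 arrays, at an adjusted p under 0.05. For granule cells less P7 cerebella, 4 of 18 probe sets (22.2%) passed, beside 20.3% of all probe sets. They were Scarb2 1460235_at, with a difference of 0.57 (adjusted p = 0.00263), Kcnc1 1423559_at, with -0.82 (0.00683), Prickle1 1444759_at, with -0.48 (0.0243), and Kcnc1 1456944_at, with -0.32 (0.0425). For P30 less P7 cerebella none of the 18 passed in limma (smallest adjusted p 0.423, background 0.124%), and for granule cells less P30 cerebella none did (smallest adjusted p 0.130, background 5.1%). The cultures and the cerebella differ in cell makeup, age and preparation as well, which cannot be told apart here.

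Around these genes stand others of the same pathways, grouped in 9 lists of which 99 of 107 genes had probe sets. Scarb2's companions were lysosomal membrane genes, listed together with the scavenger receptors Scarb1 and Cd36 and the transcription factor Tfeb. In this list 15 of 18 probe sets had a positive difference in granule cells. The list median was 0.38, beside -0.02 over all probe sets, but none was called. The fibroblast, dividing cell and astrocyte markers given above were higher in the same cultures, and their part in this list was not tested. Lamp2, an abundant lysosomal membrane protein, had the largest, 1.36 (limma adjusted p = 0.0173), and 11 of the 18 were higher at an unadjusted p under 0.05, beside 18.3% of all probe sets. Several of these were of the same gene, with Lamp2 at 1.36, 0.62, 0.68 and 0.54 and Scarb1 at 0.34, 0.63 and 0.58. At P7 the largest Lamp2 difference was -0.46 (limma adjusted p = 0.328), and at P30 it was 0.38 (0.498). The next list held genes of ceroid lipofuscinosis and other storage diseases. It also named Serpini1, Sema6b, Slc7a6os, Atn1 and Afg3l2, which were listed for myoclonus epilepsy. Of its 44 probe sets, 1 was called, at P30, beside 0.138% of all probe sets called higher there. None was called at P7 or in granule cells, where 0.00666% and 2.54% of all probe sets were. The called probe set was annotated to Grn, which encodes the lysosomal protein progranulin and is expressed by microglia. Its ID ends in _x_at, so it can also bind related transcripts. This probe set rose at P30 by a log2 difference of 0.49 (limma adjusted p = 0.0366), where microglial markers were also higher. The part of microglial cells in the Grn value was not tested.

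Glycogen genes, the companions of Epm2a and Nhlrc1, had a median of 0.17 in granule cells over 30 probe sets. Of these, 3 (Gyg and Phka1) were called higher there, beside 2.07% of all probe sets. At an unadjusted p under 0.05, 12 of the 30 were higher and 2 lower, beside 18.3% and 13.3% of all. Gyg, glycogenin, which primes glycogen synthesis, rose by 0.69 and 0.58 in its 2 called probe sets (limma adjusted p = 0.00743 and 0.00769), and Phka1, a regulatory subunit of phosphorylase kinase, rose by 0.58 (0.00415). At P30 the glycogen median was 0.15, where astrocyte and microglial markers were also higher, with Ppp1r3c, a glycogen-targeting subunit of protein phosphatase 1 that binds laforin, at 0.44 (limma adjusted p = 0.167) and none called. At P7 none was called, and the median was -0.01. The part of the fibroblast, dividing cell and astrocyte markers in the granule cell values, and of the glial markers in those at P30, was not tested.

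In the nuclear lamina list 4 of 26 probe sets were called higher in granule cells, beside 2.07% of all probe sets. At an unadjusted p under 0.05, 9 of the 26 were higher and 3 lower there, beside 18.3% and 13.3% of all. Lmna, the A-type lamin, rose by 1.26 in 1 of its probe sets (limma adjusted p = 0.00208), and Tmpo, a lamin-binding protein of the inner nuclear membrane, rose by 1.03, 1.02 and 0.85 (0.00392, 0.00469 and 0.00986). The other B-type lamin, Lmnb1, gave 0.44 and 0.09 without a call. Other Lmna probe sets in granule cells gave 0.22, -0.15, -0.30 and 0.76, none of them called. The fibroblast and dividing cell markers were also higher on Cstb-/- arrays in the cultures, and their part in these lamina values was not tested.

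The remaining lists held no limma call in any experiment. The Golgi SNARE list also held Scfd1, Napa and Nsf, which act on SNAREs. Its medians were 0.03 at P7, -0.01 at P30 and 0.08 in granule cells over 29 probe sets. For ceramide synthesis, which stands near Cers1, they were -0.02, -0.01 and 0.10 over 31. Its largest granule cell difference was that of Sgms1, sphingomyelin synthase 1, at 0.65 (limma adjusted p = 0.0300). The other Kv3 channels, Kcnc2 and Kcnc4, had 3 probe sets, with a median of 0.22 at P7, -0.03 at P30 and -0.03 in granule cells. Planar polarity genes, listed together with the transcriptional repressor Rest, had medians of -0.02, -0.00 and 0.05 over 28 probe sets. KCTD and cullin 3 genes had -0.03, 0.06 and 0.12 over 16. At an unadjusted p under 0.05 in granule cells, the Golgi SNARE list had 7 probe sets higher and 2 lower, and the ceramide list 7 higher and 1 lower. The planar polarity list had 5 higher and 1 lower, the KCTD and cullin 3 list 2 higher, and the Kv3 channels none. Over all probe sets 18.3% were higher and 13.3% lower.

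**Figure D5:**
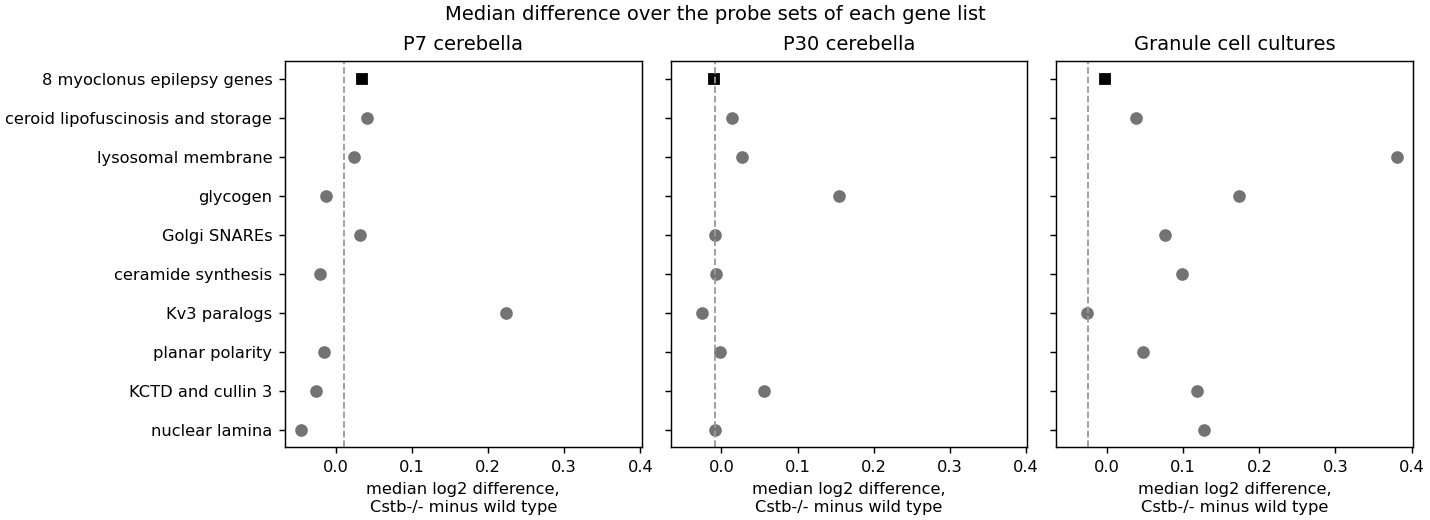
Median log2 difference (Cstb-/- minus wild type) over the probe sets of the 8 genes (square) and of each companion list (circles) in the 3 experiments; the dashed line is the median of all probe sets. The highest median, 0.38, is that of the lysosomal membrane list in granule cell cultures. Lists carry short names, and some hold further genes that the text gives.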

How the data were processed

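Total RNA was labelled and hybridised to Mouse Genome 430 2.0 arrays by the authors, who computed signals with RMA (background adjustment, quantile normalization, summarization) in GeneSpring GX and deposited log2 values from which the median of each probe set within an experiment had been subtracted. Absolute levels were thus removed, no filter on dim probe sets could be applied, and values were compared only within an experiment. In granule cells 49.9% of probe sets had 2 or more arrays at exactly 0 (8 of the 18 described here), against 0.81% at P7 and 0.842% at P30, and how these arose is not given in the sources used here. That can lower the spread of those probe sets.

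The 9 genes, the 9 companion lists and the 9 marker lists were chosen with earlier results of these data known. Gene names came from the platform's annotation, in which 34945 of 45037 probe sets carried 1 symbol, 932 several and 9160 none. Control probe sets were left out. Genotypes were compared within each experiment with limma 3.58.1 in R 4.3.3 (lmFit and eBayes, 2-sided), with Benjamini-Hochberg adjustment over all probe sets. Thresholds of fold (1.3) and adjusted p (0.05 in cerebella, 0.01 in granule cells) followed the study's methods, whose unpaired equal-variance test was an alternative. Differences between experiments were contrasts in 1 fit over the 21 arrays. The fit was tested on simulated data.

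All probe sets of the 8 genes are named. For the companion lists, probe sets that were called are named (at most 4 a list), or the one with the largest difference where none was. Lmnb1, the remaining Lmna probe sets, Scarb1 and Lamp2 are given as paralogs or relatives of the 9 genes. Likeness to Scarb2 used the probe set with the larger SD and Pearson's r. Alternatives were the p threshold, the fold threshold, the set corrected over, gene means, robust eBayes, array weights, array medians centred, labelled sex, marker means as covariates, a replicate block, 1 fit over all groups and each array left out. The number of arrays limits the precision.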

Additional observations from a re-analysis of the deposited data

Results flagged for a closer look

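Of the 54 groups of 4 arrays of these 18 probe sets, 3 held an array far from the others by Dixon's criterion, which chance alone passes in about 1 in 20 groups. Wild type array 2 at P7 read -0.18 for Kcnc1 1423559_at, with its nearest neighbour at -0.01. Wild type array 3 at P7 read 0.39 for Prickle1 1452249_at, with the nearest at 0.02. Wild type granule cell array 8 read 0.17 for Scarb2 1454704_at, with the nearest at 0.01.

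The genotype difference (Cstb-/- minus wild type) differed between granule cells and P7 cerebella for 4 probe sets, by a limma contrast over the 21 arrays. It was higher in granule cells by 0.57 for Scarb2 1460235_at (adjusted p = 0.00263). It was lower there for the 3 others, with contrasts of -0.82 for Kcnc1 1423559_at (adjusted p = 0.00683), -0.48 for Prickle1 1444759_at (0.0243) and -0.32 for Kcnc1 1456944_at (0.0425). The share of all probe sets that passed the same contrast was 20.3%.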

How the results depend on the processing

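The count of 0 called probe sets among the 18 was the same at P7 and P30 under every alternative that was run. None of the 18 differences reached the 1.3-fold size at these ages, so alternatives that kept the estimate and the fold rule could call none. The setting without a fold threshold also called 0. In granule cells the count was the same under all but 3 alternatives. There, 1 was called with an adjusted p threshold of 0.05 and 1 with array weights, both times Scarb2 1460235_at (limma adjusted p = 0.00654 with weights). In 1 fit over all groups 3 were called, Scarb2 1460235_at higher (adjusted p = 0.00118) and Kcnc1 1423559_at and Prickle1 1444759_at lower. These settings also moved the calls over all probe sets, to 9.05%, 6.28% and 12.7%, from the 2.54% of the report. Over all alternatives the probe sets called in all ranged from 1 to 1108 at P7 (3 as reported; 1108 with labelled sex, 38 without Cstb-/- array 1, 203 with the methods' test past the fold), from 1 to 226 at P30 (65 as reported; 226 with array weights) and from 0 to 5725 in granule cells (1144 as reported; 0 with the fibroblast covariate). The dimmest probe sets could not be left out, because levels were not kept.

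Of 612 values of single probe sets under the alternatives, 578 kept their sign and their side of the threshold, 5 passed the threshold only under the alternative and 29 changed sign, none of them called. With array weights the log2 difference at P7 became 0.0048 for Gosr2 1419371_s_at, -0.044 for Gosr2 1419372_at, 0.0085 for Epm2a 1439677_at, -0.030 for Prickle1 1444759_at, 0.00076 for Lmnb2 1448531_at and 0.088 for Prickle1 1452249_at, and at P30 0.029 for Lmnb2 1448531_at and 0.15 for Kctd7 1456092_at. With the choroid plexus mean as a covariate the P7 values became 0.072 for Gosr2 1419371_s_at, -0.037 for Gosr2 1419372_at, 0.068 for Nhlrc1, 0.25 for Epm2a 1439677_at, -0.021 for Prickle1 1442172_at, 0.21 for Lmnb2 1448531_at, -0.017 for Kcnc1 1456965_at and 0.10 for Scarb2 1460235_at, and Epm2a 1421553_at kept its sign at 0.62. With the fibroblast mean the granule cell values became -0.99 for Gosr2 1419371_s_at, -0.40 for Gosr2 1419372_at, 1.54 for Kcnc1 1423559_at, -0.52 for Nhlrc1, -0.27 for Epm2a 1439677_at, -1.01 for Kcnc1 1443855_at, -0.36 for Kctd7 1456092_at and 0.65 for Kcnc1 1456965_at. Without a change of sign, Prickle1 1444759_at became -2.97, Lmnb2 1451849_a_at 3.46 and Kctd7 1440168_x_at -0.59; this mean nearly equals genotype. With labelled sex at P30, which sets aside the 1 Cstb-/- array labelled female, Epm2a 1439677_at became 0.024 and Kcnc1 1456965_at 0.0040. The choroid plexus mean had r = -0.823 with genotype at P7. The cause of the other changes was not tested.

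The labels share replicate numbers 1 to 3 between genotypes at P7 and P30, but same-numbered arrays did not deviate together (r = 0.006, 0.046 and 0.168 at P7, and -0.035, -0.178 and -0.034 at P30), and not every array correlated best with its own number. With the replicate block, 0 of the 18 were called at either age, and 2 probe sets in all were called at P7 and 49 at P30. Under the block at P7, Gosr2 1419371_s_at became 0.019, Gosr2 1419372_at -0.055 and Prickle1 1452249_at 0.018.

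Leaving out each array in turn changed the sign in 36 of 378 values. At P7 the ranges were -0.091 to 0.074 for Epm2a 1439677_at, -0.032 to 0.016 for Gosr2 1419371_s_at, -0.042 to 0.13 for Gosr2 1419372_at, -0.013 to 0.076 for Kctd7 1440168_x_at, -0.062 to 0.039 for Lmnb2 1448531_at, -0.080 to 0.0014 for Nhlrc1, -0.013 to 0.050 for Prickle1 1444759_at and -0.14 to 0.054 for Prickle1 1452249_at. At P30 they were -0.086 to 0.74 for Epm2a 1421553_at, -0.15 to 0.024 for Epm2a 1439677_at, -0.064 to 0.091 for Gosr2 1419372_at, -0.12 to 0.031 for Kcnc1 1456965_at, -0.17 to 0.14 for Kctd7 1456092_at and -0.043 to 0.036 for Lmnb2 1448531_at. In granule cells they were -0.055 to 0.051 for Epm2a 1421553_at, -0.083 to 0.11 for Kctd7 1456092_at and -0.00064 to 0.30 for Lmnb2 1448531_at.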
